A study of Homo sapiens with 25 samples.

Results

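Keratins are the proteins that form the intermediate filaments of epithelial cells, and 10 keratin genes used to tell basal from luminal breast cells were followed here: KRT5, KRT6B, KRT14, KRT15, KRT16 and KRT17 of basal or stressed epithelium, and KRT7, KRT8, KRT18 and KRT19 of simple or luminal epithelium. Their probe sets, groups of short probes read as 1 value, were those annotated to exactly 1 of these symbols, and every such probe set is described. There were 12 of them, among 54613 probe sets in the table and 41091 with exactly 1 gene symbol. They covered 8 of the 10 genes. KRT6B and KRT17 have no probe set named in the annotation used and were not analysed here. KRT7 had 4 probe sets, KRT19 had 2, and KRT5, KRT14, KRT15, KRT16, KRT8 and KRT18 had 1 each.

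The study measured transcript levels on 25 Affymetrix arrays of cultured human lines given 10 µM erlotinib, an inhibitor of the EGFR kinase. BT20, a line from a human breast carcinoma, was sampled at 0 min (4 arrays) and after 30 min, 6 h and 24 h (3 arrays each). MDA-MB-453, also from a breast carcinoma, and a line labelled only MCF were each sampled at 0 min and 24 h (3 arrays per group). All dishes, those at 0 min included, were kept in medium with serum, and erlotinib is named for every array with the time since its addition. There was no untreated 24 h group, so drug and time in culture cannot be told apart. The labels do not say whether the arrays of a group came from separate cultures, so the p-values reflect only how far these arrays scatter, which may be technical.

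A keratin filament is built from pairs of 1 type I and 1 type II chain, and the pairs differ between cell layers. In the mammary gland KRT5 and KRT14 mark the basal, myoepithelial layer, while KRT8, KRT18, KRT19 and KRT7 mark the luminal layer. KRT15 is a type I keratin of basal layers in stratified epithelia, and KRT16 is a type I keratin that appears in wounded or fast dividing epidermis.

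All values are log2 GCRMA values as deposited, a change is the log2 mean of one group minus that of another, and ± gives the limma standard error, or the SD where that is written. A probe set was tested where its log2 value exceeded 4 on at least 3 arrays of the fit, and was called where its limma p, adjusted by the Benjamini-Hochberg method over all probe sets tested, was under 0.05. Levels of different probe sets are not on a common scale, so each is compared only with itself. Where a group mean lay below 4, the size of a difference is inexact. The arrays are of whole cultures, so fewer cells with a transcript and less transcript per cell cannot be told apart.

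Over 29774 probe sets, BT20 0 min replicate 4 correlated at 0.989 to 0.992 with the 6 h arrays of BT20. With the other 0 min arrays it correlated at 0.964 to 0.969. It was thus closer to the 6 h arrays than to those of its own label, and the reason was not tested. Counts and leading values against 0 min are therefore given with and without it. Replicate 4 is among the 0 min arrays in the DUSP6 differences of BT20 that follow, whose standard error was 0.20. DUSP6, a feedback target of the EGFR and ERK pathway, differed from 0 min by -5.58 ± 0.20 at 6 h and -5.93 ± 0.20 at 24 h in BT20 (limma adjusted p = 2.57e-08 and 2.42e-09). It differed by -0.19 ± 0.10 in MDA-MB-453 (limma adjusted p = 0.312) and by -1.56 ± 0.26 in MCF (limma adjusted p = 0.383). Of 5 epithelial markers, 5 had group means above 4 in every group. None of 4 blood markers was above 4 in any group. COL1A1 of the fibroblast list was above 4 in every group of the 3 lines, and COL3A1 was above 4 in MCF at both times. Of the endothelial list CDH5 was above 4 in BT20 only, and PECAM1 came above 4 at 24 h in BT20 and MCF. The part of other cell types in the results was not tested.

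Levels of the measured set before treatment were compared between BT20 and MDA-MB-453. All 12 probe sets were called higher in BT20, where 35.3% of the 28574 probe sets tested were called higher and 72.4% were called in either direction. Among the basal keratins, KRT5 read 12.63, 12.61, 12.26 and 11.98 on the 4 BT20 arrays, and 3.08, 2.86 and 2.65 on those of MDA-MB-453. The difference for KRT16 was 4.33 ± 0.36, for KRT15 3.53 ± 0.12 and for KRT14 1.16 ± 0.15 (limma adjusted p = 1.23e-08, 3.83e-14 and 2e-06). The MDA-MB-453 mean lay below 4 for KRT5, KRT14, KRT15, KRT16 and 1 probe set of KRT7, so those sizes are inexact. These 5 probe sets passed the filter through the BT20 arrays, which fixes their direction, so nothing is read from the count of 12. KRT14 itself reached only 3.89 ± 0.21 (SD, n = 4) in BT20.

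The luminal keratins had 0 min means above 4 in both of these lines, apart from KRT7 on 1558394_s_at, at 3.67 in MDA-MB-453. KRT7 differed by 1.86 to 3.34 log2 units over its 4 probe sets, KRT8 by 4.31-fold and KRT18 by 2.57-fold (limma adjusted p = 2.46e-07 for KRT8 and 3.17e-05 for KRT18). KRT19 differed by 0.69 ± 0.25 log2 units on its first probe set, 201650_at, and 1.02 ± 0.36 on its second, 228491_at (limma adjusted p = 0.0199 and 0.0191). On the first, MDA-MB-453 replicate 3 read 12.59, level with BT20 0 min replicates 3 and 4 at 12.60 and 12.54, so the arrays overlapped. With BT20 0 min replicate 4 alone as the control 10 probe sets were called higher, with both KRT19 probe sets not called, and with replicates 1 to 3 all 12 were (60.7% and 76.8% of all probe sets called in either direction, in that order).

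**Figure D1:**
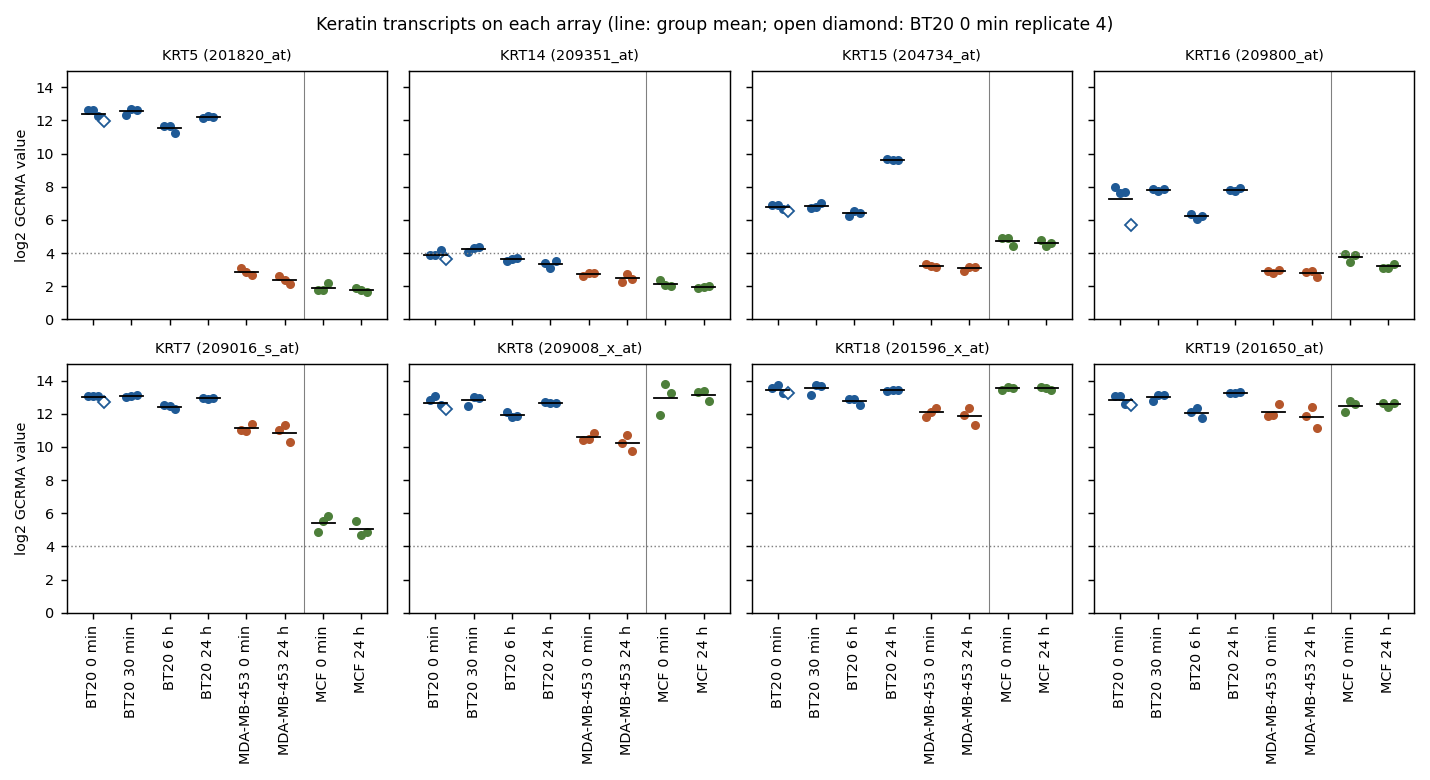
Log2 GCRMA level of 8 keratin genes (1 panel each, the probe set with the highest mean) on each of the 25 arrays, by line and time. Bars mark group means, the dotted line the level of 4 used for testing, the open diamond BT20 0 min replicate 4, and the vertical line sets MCF apart. KRT15 stood near 9.63 in BT20 at 24 h against 6.75 at 0 min, while KRT5 and KRT16 had means below 4 in MDA-MB-453 and MCF. KRT14 had means below 4 in those lines too, and also in BT20 at 0 min, 6 h and 24 h.

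The MCF arrays belong to a part of the series whose 75th percentiles were 7.27 to 7.32, against 7.65 to 7.81 on the others, so their levels are given side by side only. At 0 min MCF had KRT18 at 13.55 ± 0.08, KRT8 at 12.97 ± 0.96 and KRT19 on 201650_at at 12.48 ± 0.35 (SD, n = 3). KRT5 read 1.74, 1.75 and 2.18 and KRT14 read 2.35, 2.06 and 2.01, below the level used for testing. KRT7 read 4.89, 5.55 and 5.86 on 209016_s_at, where MDA-MB-453 read 11.04, 10.95 and 11.38. KRT15 read 4.88, 4.89 and 4.42 in MCF and 3.31, 3.22 and 3.13 in MDA-MB-453.

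KRT5, the type II partner of KRT14 and of KRT15, stands on the minus strand of chromosome 12 in GRCh38.p14. RefSeq windows before the annotated start were held for 2 of the 8 genes, KRT5 and KRT8. The 250 bases before the KRT5 start, chr12:52520395-52520644, are shown 5′ to 3′ because KRT5, a defining basal keratin, was high on all BT20 arrays and below 4 on all MDA-MB-453 arrays. No base is in capitals, because none of the motifs searched was found.

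KRT5: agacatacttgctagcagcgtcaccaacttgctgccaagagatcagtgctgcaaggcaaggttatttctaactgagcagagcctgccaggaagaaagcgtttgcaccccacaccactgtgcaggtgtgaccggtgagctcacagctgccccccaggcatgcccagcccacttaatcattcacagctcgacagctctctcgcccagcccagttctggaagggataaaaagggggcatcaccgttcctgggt

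On both strands the window was searched for TGANTCA, a form of the AP-1 site, for TATAAA, a form of the TATA box, and for GGGCGG, a form of the Sp1 site. None was found in it or in the KRT8 window, and 6.57%, 10.7% and 42.6% of 35116 RefSeq promoter windows held them, in that order. These exact letters are absent from the window, other forms of the sites were not searched for, and no binding was measured.

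After 30 min none of the 12 keratin probe sets was called in BT20, where limma called 3 of 26391 probe sets tested, or 0.0114%. At an unadjusted p under 0.05 there were 1117 probe sets, and 1 of them was a keratin, KRT14. KRT14 read 4.04, 4.33 and 4.37 at 30 min and 3.87, 3.91, 4.16 and 3.64 at 0 min, and the arrays overlapped. The median difference of the 12 was 0.17, against -0.01 over all probe sets tested. With replicates 1 to 3 as the control none of the 12 was called (0.0495% of all), and with replicate 4 alone 7 were called higher (44.7% of all).

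At 6 h the keratins were lower together in BT20. With all 4 control arrays 10 of the 12 probe sets fell and none rose, where 25.3% of all probe sets fell and 50.9% were called in either direction. The median difference of the 12 was -0.81, against 0.00 over all tested. The 2 that were not called were KRT14 and KRT16. The size of this fall, and every call in it, depended on which 0 min arrays served as the control: with replicates 1 to 3 all 12 were called lower (67.9% of all called in either direction), and with replicate 4 alone none of the 12 was (5.44%).

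Among the basal keratins KRT5 read 11.67, 11.64 and 11.25 at 6 h, below all 4 arrays at 0 min. It fell by 0.85 ± 0.17 (limma adjusted p = 0.00313), by 0.98 against replicates 1 to 3, and against replicate 4 alone the difference was -0.46 (limma adjusted p = 0.222). KRT15 read 6.22, 6.55 and 6.39 against 6.90, 6.87, 6.67 and 6.56, with the highest 6 h array just under replicate 4, and fell by 0.37 ± 0.12 (limma adjusted p = 0.0264). Against replicates 1 to 3 it fell by 0.43, and against replicate 4 alone the difference was -0.18, not called.

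KRT16 showed the largest effect of the control arrays. It read 6.34, 6.03 and 6.25 at 6 h, and 7.96, 7.63, 7.66 and 5.68 at 0 min. Replicate 4 lay below all 6 h arrays and the other 3 lay above them. The difference was -1.02 ± 0.41 with all 4 controls (limma adjusted p = 0.055), -1.54 ± 0.11 with replicates 1 to 3 (limma adjusted p = 2.92e-07) and 0.53 ± 0.16 with replicate 4 alone (limma adjusted p = 0.0836).

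The luminal keratins all fell at 6 h when set against all 4 controls. KRT8, the type II partner of KRT18, read 12.09, 11.80 and 11.86 after 12.85, 13.07, 12.51 and 12.27, and fell by 0.76 ± 0.19 (limma adjusted p = 0.0079). KRT18 fell by 0.69 ± 0.17 (limma adjusted p = 0.00746). KRT19, a luminal type I keratin, fell by 0.76 ± 0.17 and 0.97 ± 0.19 on its 2 probe sets (limma adjusted p = 0.00517 and 0.0031).

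KRT7, a type II keratin of simple ductal epithelium, fell on all 4 of its probe sets, by 0.56 to 1.48. The probe sets differed in size: 209016_s_at, with a mean of 12.98 at 0 min, fell by 0.56 ± 0.12, and 1558394_s_at, with a mean of 6.08, fell by 1.48 ± 0.30 (limma adjusted p = 0.0037 and 0.00354). Against replicate 4 alone the KRT8 difference was -0.35, that of KRT18 -0.49 and that of KRT7 on 209016_s_at -0.27, and none was called.

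**Figure D2:**
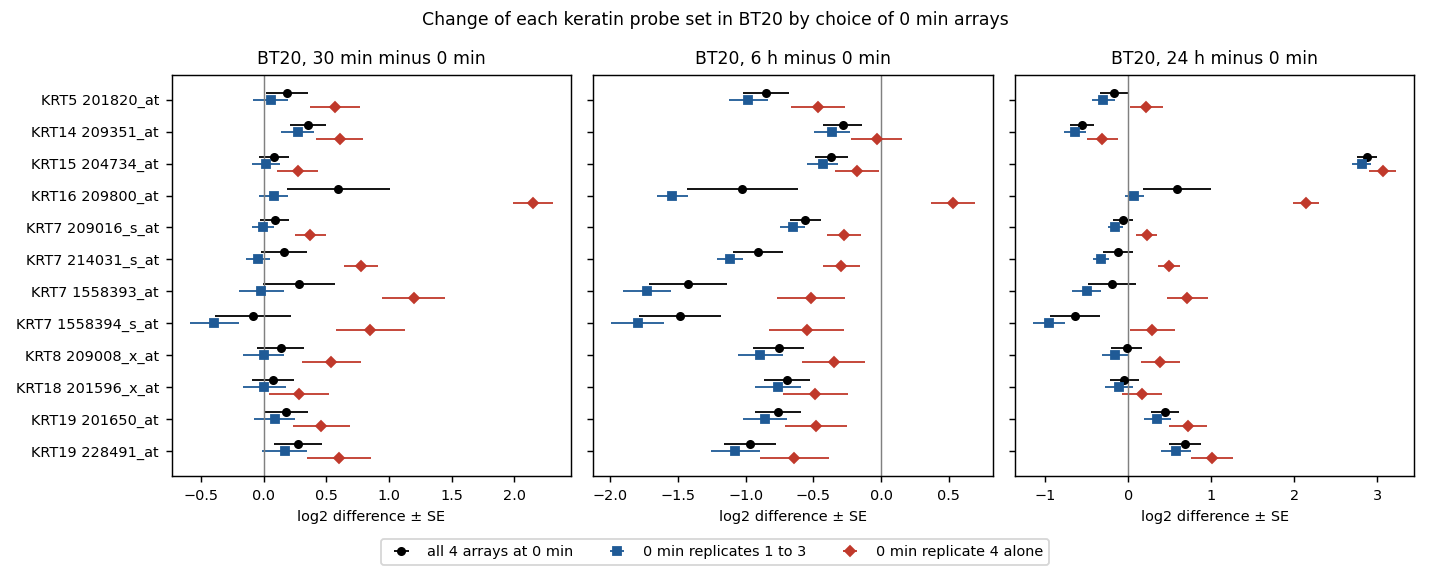
Change of each keratin probe set in BT20 at 30 min, 6 h and 24 h (log2 difference ± SE) with all 4 arrays at 0 min, with replicates 1 to 3 and with replicate 4 alone as the control. KRT16 moved from -1.54 to 0.53 at 6 h with the control, while KRT15 at 24 h stayed between 2.82 and 3.07.

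At 24 h KRT15 was the keratin that stood out in BT20. Its arrays read 9.69, 9.59 and 9.61, after 6.90, 6.87, 6.67 and 6.56 at 0 min, 6.71, 6.78 and 7.02 at 30 min and 6.22, 6.55 and 6.39 at 6 h. All 3 arrays at 24 h lay above every other BT20 array. It rose by 2.88 ± 0.12, or 7.35-fold (limma adjusted p = 1.05e-08). The rise was 2.82 against replicates 1 to 3 and 3.07 against replicate 4 alone.

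Of the 12 probe sets 3 were called at 24 h, 2 higher and 1 lower, where 21.6% of all tested were called higher, 18.9% lower and 40.5% in either direction. The median of the 12 was -0.06, against -0.01 over all tested. Besides KRT15, the second KRT19 probe set, 228491_at, was called higher, and KRT14 was called lower. With replicates 1 to 3 as the control 2 were higher and 4 lower (54.3% of all in either direction), and with replicate 4 alone 6 were higher and none lower (50.6%).

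KRT19 read 12.68, 12.52 and 12.66 on 228491_at, above its arrays of 12.12, 12.22, 11.80 and 11.61 at 0 min, and rose by 0.68 ± 0.19 (limma adjusted p = 0.0132). It was called at 0.57 against replicates 1 to 3 and at 1.00 against replicate 4 alone. Its first probe set, 201650_at, read 13.23, 13.24 and 13.30 after 13.04, 13.09, 12.60 and 12.54. There the groups did not overlap, and the difference of 0.44 ± 0.17 missed the threshold (limma adjusted p = 0.0579). The difference on this probe set was 0.35 against replicates 1 to 3, and it was called at 0.72 against replicate 4 alone.

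KRT14, the classical type I keratin of the basal layer, read 3.40, 3.08 and 3.51 at 24 h, below its 0 min arrays of 3.87, 3.91, 4.16 and 3.64. It fell by 0.56 ± 0.14 (limma adjusted p = 0.00777), and both means lay below 4. KRT14 passed the filter through the 30 min arrays and 0 min replicate 3, and no 24 h array exceeded 4. The filter thus favours a fall, and nothing is read from this call. Against replicate 4 alone the difference was -0.31 (limma adjusted p = 0.188). KRT5 read 12.13, 12.26 and 12.20, and its difference was -0.17 ± 0.17 (limma adjusted p = 0.448), or 0.21 against replicate 4 alone.

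The luminal pair KRT8 and KRT18 overlapped with the control arrays at 24 h. KRT8 differed by -0.02 ± 0.19 and KRT18 by -0.05 ± 0.17 from 0 min (limma adjusted p = 0.945 and 0.848). KRT7 differed by -0.06 to -0.64 over its 4 probe sets, none called. With replicates 1 to 3 as the control 3 of the KRT7 probe sets were called lower, and with replicate 4 alone 2 were called higher.

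KRT16 read 7.78, 7.77 and 7.91 at 24 h, in the range of 0 min replicates 1 to 3. The difference was 0.59 ± 0.41 with all 4 controls (limma adjusted p = 0.285), 0.07 with replicates 1 to 3 and 2.14 with replicate 4 alone (limma adjusted p = 9.86e-07).

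Between 6 h and 24 h 11 of the 12 probe sets rose in BT20, where 27% of all probe sets rose and 52.8% were called in either direction. This comparison uses no 0 min array, but its 6 h arrays are those that 0 min replicate 4 resembled. Whatever sets these arrays apart from the other BT20 arrays enters this comparison too, and it was not tested. The median of the 12 was 0.81, against 0.01 over all tested. KRT15 rose by 3.25 ± 0.13 and KRT16 by 1.61 ± 0.44 (limma adjusted p = 2.84e-08 and 0.0096). KRT19 rose by 1.20 ± 0.18 and 1.65 ± 0.20, KRT8 by 0.74 ± 0.20, KRT5 by 0.68 ± 0.18 and KRT18 by 0.65 ± 0.18 (limma adjusted p of 0.0114 or less). KRT7 rose by 0.50 to 1.23 over its 4 probe sets. KRT14 alone among the 12 was lower, by a difference of -0.28 ± 0.15 that was not called (limma adjusted p = 0.141).

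In each of the 4 BT20 groups 1 array was the lowest for most keratins. BT20 0 min replicate 4 was the lowest of its 4 arrays in 12 of the 12 probe sets, against 41.1% of all probe sets. At 30 min replicate 1 was lowest in 11 of 12 (36.7% of all), and at 6 h replicate 3 was lowest in 8 of 12 (38.6% of all). At 24 h the lowest array was replicate 2 in 7 of 12 (33.4% of all), replicate 1 in 4 (39.4%) and replicate 3 in 1 (27.2%). The members share the arrays, so these counts describe single arrays and not conditions.

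**Figure D3:**
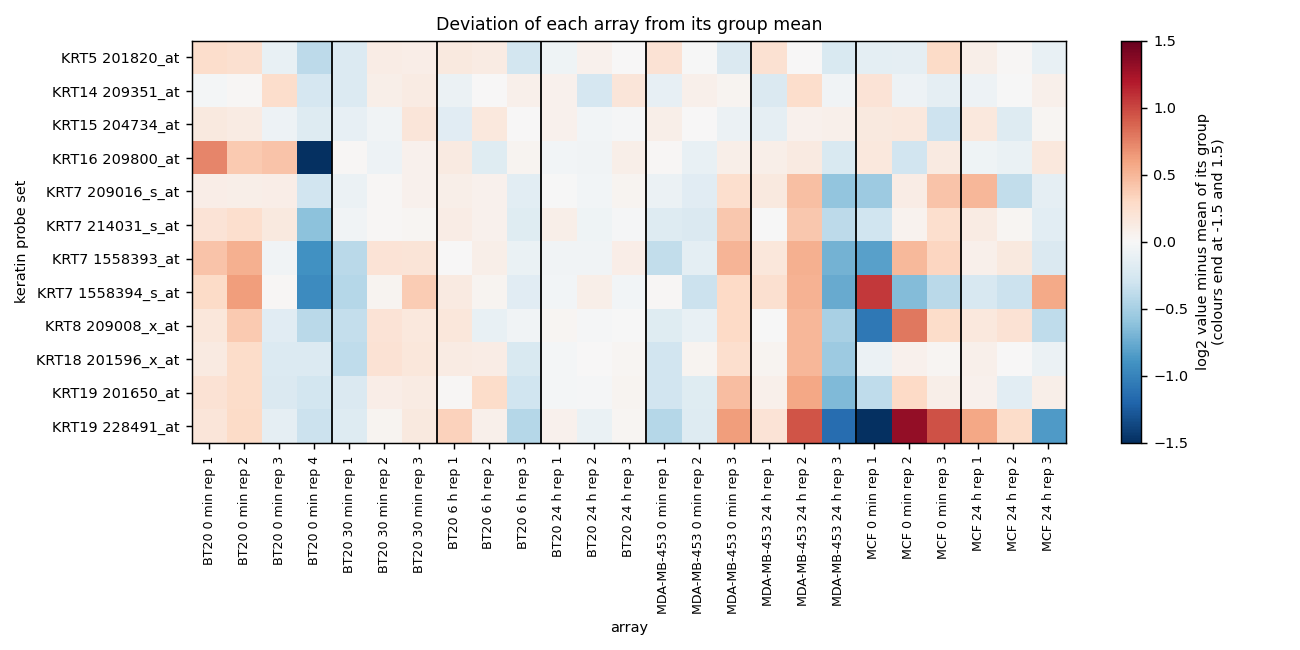
Deviation of each array (columns) from its group mean for all 12 keratin probe sets (rows), in log2 units from blue (below) to red (above). Among the 7 probe sets tested in MDA-MB-453, replicate 3 at 24 h was the lowest array in 7 and replicate 2 the highest in 7.

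In MDA-MB-453 no keratin was called at 24 h. There 7 probe sets of 4 genes, KRT7, KRT8, KRT18 and KRT19, were tested, and limma called none of them, where 1552 of 24685 probe sets or 6.29% were called; none of the 7 had an unadjusted p under 0.05. The differences ran from -0.24 to -0.54 with a median of -0.31, against -0.01 over all tested. KRT19 on 228491_at had the widest error, -0.54 ± 0.56 (limma adjusted p = 0.633), with arrays of 10.49, 10.73 and 11.55 at 0 min and 10.59, 11.33 and 9.24 at 24 h. KRT8 read 10.39, 10.45 and 10.86 at 0 min and 10.23, 10.73 and 9.75 at 24 h. The arrays overlapped for all 7. Without replicate 3 of 24 h the difference was 0.04 for KRT7 on 209016_s_at, 0.04 for KRT18 and 0.02 for KRT19 on 201650_at, none called. At 0 min replicate 3 was the highest array in 7 of 7 (42.3% of all), and at 24 h replicate 2 was the highest in 7 of 7 (40.3%) and replicate 3 the lowest in 7 of 7 (45.2%).

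In MCF no keratin was called at 24 h either, and limma called 0 of 24047 probe sets tested (0%). At an unadjusted p under 0.05 there were 1422 probe sets, none of them among the 6 keratin probe sets of KRT7, KRT8, KRT15, KRT18 and KRT19. A fit to all 25 arrays called 694 of 29774 for this comparison and a fit with array weights 5355 of 24047, in both cases with no keratin probe set among them. KRT15 read 4.76, 4.41 and 4.63 at 24 h after 4.88, 4.89 and 4.42, a difference of -0.13 ± 0.21 (limma adjusted p = 1). KRT18 differed by -0.01 ± 0.16, with arrays between 13.45 and 13.61 at both times. KRT8 and KRT19 rested on uneven controls: replicate 1 at 0 min read 11.90 for KRT8 and 8.48 for KRT19 on 228491_at, where the other 2 read 13.77 and 13.25, and 12.07 and 11.70. Replicate 1 was the lowest 0 min array in 5 of 6 keratin probe sets (46.8% of all). The difference of KRT8 was 0.18 ± 0.50, or -0.36 without that array, and that of this KRT19 probe set was 0.65 ± 0.99, or -0.48 without it.

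**Figure D4:**
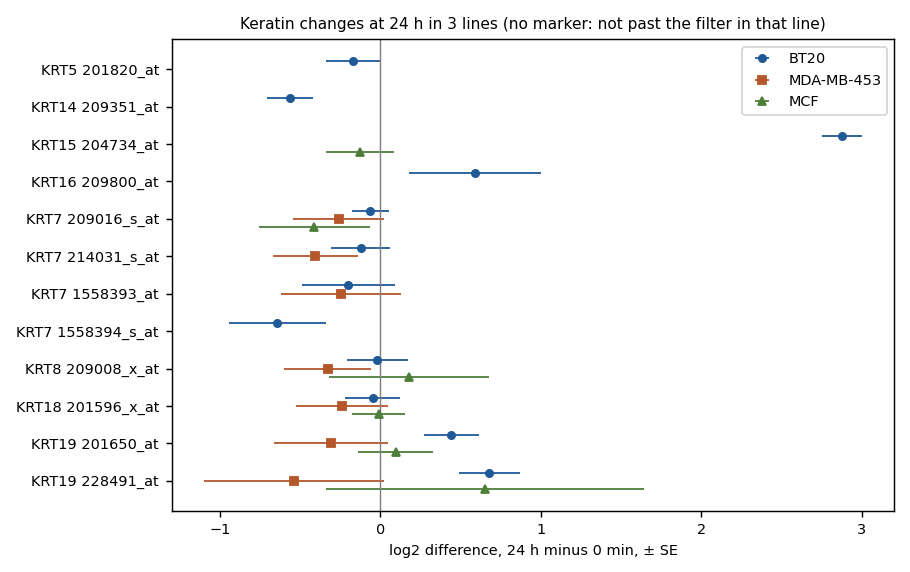
Change from 0 min to 24 h (log2 difference ± SE) of each keratin probe set in BT20, MDA-MB-453 and MCF, each from a fit to that line's own arrays; a probe set with no marker was not tested in that line. KRT15 rose by 2.88 in BT20 and lay at -0.13 in MCF.

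The 24 h change was compared between lines in 1 fit to all 25 arrays. KRT15 was the single keratin probe set called of 12 in each comparison, where 11.8% of probe sets differed between BT20 and MDA-MB-453 and 13.5% between BT20 and MCF. Its change in BT20 exceeded that in MCF by 3.01 ± 0.20 (limma adjusted p = 1.79e-09). Against MDA-MB-453 the fitted difference was 3.03 ± 0.20 (limma adjusted p = 1.55e-09). KRT15 did not pass the filter in MDA-MB-453, with means of 3.22 at 0 min and 3.07 at 24 h, and entered that comparison through the other lines, so its size is inexact and a change there may lie below what the arrays measured. Both comparisons share the BT20 arrays. With 0 min replicate 4 alone 2 probe sets were called for each (16.7% and 15.8% of all), and with replicates 1 to 3 it was 1 for MDA-MB-453 and 2 for MCF (16.7% and 19.6%). KRT19 on 201650_at differed by 0.75 ± 0.36 between BT20 and MDA-MB-453 (limma adjusted p = 0.226). KRT16 differed by 1.17 ± 0.49 between BT20 and MCF (limma adjusted p = 0.13), on MCF means below 4. KRT16 was the second call in that comparison without 0 min replicate 4, at 0.65 ± 0.20 (limma adjusted p = 0.0262), and with replicate 4 alone, at 2.72 ± 0.24 (limma adjusted p = 3.51e-07).

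The genes nearest to KRT15 in pattern over the 13 BT20 arrays were ATP2A3 (Pearson's r = 0.993), EFNB3 (0.992) and ALDH3B2 (0.991), among 11509 genes. For KRT14 they were TRIM35 (0.953), ARIH2 (0.945) and C6orf141 (0.939). All points share the arrays and their order in time, so these are descriptions. In the RefSeq order of genes on chromosome 17 KRT15 lies between KRT13 and KRT19, and KRT16 lies beside KRT14. KRT13, singled out after its values were seen, rose by 0.54 ± 0.17 at 24 h in BT20 (limma adjusted p = 0.0223), by 0.39 against replicates 1 to 3 and by 1.00 against replicate 4 alone.

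Other genes of the keratin cytoskeleton were taken as lists, with 1 probe set per gene. Their counts at 24 h stand beside 21.6% of all probe sets called higher and 18.9% called lower, and, in either direction, 54.3% with replicates 1 to 3 and 50.6% with replicate 4 alone. Of 18 other keratins 14 had a probe set and 8 were tested in BT20 at 24 h, of which 1 rose and 5 fell, with a median of -0.40 against -0.01 over all probe sets. KRT1, a type II keratin of differentiating epidermis, fell by 2.56 ± 0.31 (limma adjusted p = 3.99e-05), and by 1.55 against replicate 4 alone. KRT78 fell by 0.78 ± 0.10 and KRT9, the type I keratin of palm and sole skin, by 0.50 ± 0.09 (limma adjusted p = 7.7e-05 and 0.00115). The counts were again 1 and 5 with replicates 1 to 3. The 24 h means of KRT1, KRT9, KRT23 and KRT78 lay below 4, at 2.56, 3.70, 3.37 and 3.58. These genes passed the filter only with the help of earlier arrays, which favours a fall, so nothing is read from the count that fell.

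Of 16 genes of desmosomes and hemidesmosomes, the junctions that anchor keratin filaments, 12 were tested in BT20 at 24 h. Of these 2 rose and 2 fell, and with replicates 1 to 3 as the control 4 rose and 4 fell. With replicate 4 alone 4 rose and 4 fell as well, but 3 genes called in both had turned: PKP3 went from -0.60 to 0.80, DSC2 from 0.66 to -0.64 and PKP2 from 0.32 to -0.60. PPL, the plakin periplakin, rose by 1.01 ± 0.13, and JUP, plakoglobin, rose by 0.43 ± 0.11 (limma adjusted p = 7.05e-05 and 0.00664). ITGA6, the alpha chain of the hemidesmosome integrin, fell by 0.94 ± 0.13 (limma adjusted p = 0.000105). ITGB4, its beta chain, named after its values were seen, fell by 1.39 ± 0.41 (limma adjusted p = 0.0177), and against replicate 4 alone its difference was 0.16, not called. PLEC, the plakin plectin, likewise named afterwards, differed by -1.18 ± 0.45 (limma adjusted p = 0.0544), with a fall of 1.73 against replicates 1 to 3 and 0.47, not called, against replicate 4 alone.

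Of 13 basal markers that are not keratins 9 were tested in BT20, and at 24 h 1 rose and 4 fell, with a median of -0.54. SNAI2, a transcription factor of basal cells, fell by 1.87 ± 0.23, and the caveolae genes CAV1 and CAV2 fell by 0.80 ± 0.13 and 0.61 ± 0.12 (limma adjusted p = 4.27e-05, 0.000285 and 0.00132). With replicates 1 to 3 the counts were 1 and 6. With replicate 4 alone they were 2 and 4, and the median was 0.12, of the opposite sign. The one that rose with all 4 controls, named after its values were seen, was CDH3, P-cadherin, by 0.50 ± 0.13 (limma adjusted p = 0.00868).

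Of 18 luminal markers that are not keratins 9 were tested, and 5 rose and 1 fell, with a median of 0.45. MUC1, an apical mucin, rose by 1.72 ± 0.10, CLDN4, a tight junction claudin, by 1.13 ± 0.15, and ELF3, an epithelial ETS factor, by 1.94 ± 0.28 (limma adjusted p = 1.46e-07, 6.27e-05 and 0.000154). The one that fell, named after its values were seen, was GATA3, a luminal transcription factor, by 0.45 ± 0.12 (limma adjusted p = 0.00982); MLPH was the second to fall with replicates 1 to 3, by 0.34. ELF3 rose by 0.91 against replicate 4 alone and by 2.28 against replicates 1 to 3. The counts were 5 and 2 with replicates 1 to 3, and with replicate 4 alone 4 and 1.

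Of 16 genes of stratified, cornifying epithelium 11 were tested, and 4 rose and 4 fell at 24 h, with a median of 0.23. KLF4, a factor of epidermal barrier formation, fell by 2.29 ± 0.16, S100A7 by 1.76 ± 0.17 and SPRR3, a cornified envelope protein, by 1.38 ± 0.22 (limma adjusted p = 5.01e-07, 5.3e-06 and 0.000285). The 4 that rose, named after their values were seen, were the protease KLK7 by 1.89 ± 0.33, the envelope protein IVL by 1.40 ± 0.26, S100A8 by 0.78 ± 0.24 and CNFN by 0.64 ± 0.15 (limma adjusted p = 0.000586, 0.00107, 0.0198 and 0.00516). The counts were again 4 and 4 with replicates 1 to 3. SPRR1A and SPRR3 had 24 h means below 4, at 3.37 and 3.35, and passed the filter only with the help of earlier arrays, which favours a fall. With replicate 4 alone 6 rose and 4 fell. At 6 h 8 of the 11 had fallen and none had risen, where 25.3% of all probe sets fell and 50.9% were called in either direction. SPRR1A and CDSN had 6 h means below 4, at 3.73 and 3.92, so for them the filter favours a fall at 6 h too. With replicates 1 to 3 as the control 9 had fallen and 1 had risen at 6 h, KLK7 by 1.03, and with replicate 4 alone 1 had fallen and none had risen.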

How the data were processed

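The authors deposited log2 GCRMA values per probe set, made with GCRMA 2.20.0 in R 2.11.1 per the submitters' processing notes. GCRMA models background from probe sequence and normalizes between arrays, so values near the floor carry little information. Per the labels, BT20 and MDA-MB-453 (19 arrays) and MCF (6 arrays) belong to separate parts. The values were used as deposited, with limma 3.58.1 in R 4.3.3. Of 54613 probe sets, 41091 had 1 symbol, 1801 several and 11721 none. Changes over time were fitted to each line's own arrays, the comparison of levels to all BT20 and MDA-MB-453 arrays, and differences between lines to all 25 arrays. Probe sets with log2 above 4 on at least 3 arrays of the fit were tested. All keratin probe sets are shown; other genes used the probe set with the highest mean, and up to 3 genes per list with the smallest p at 24 h in BT20 are named, plus genes checked for likeness of pattern. The keratins and lists were chosen with earlier results of these data known. Scripts were tested on simulated data. Array number limits the precision. Probe sets ending in _x_at (KRT8, KRT18) may cross-hybridise with related genes, and _s_at sets match several transcripts.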

Additional observations from a re-analysis of the deposited data

Results flagged for a closer look

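In the 4 arrays of BT20 at 0 min, replicate 4 was the lowest in 12 of the 12 keratin probe sets, and in 3 of them it stood apart from the other 3 arrays by a gap that took 0.855 of the group's range for KRT16, 0.977 for KRT7 on 209016_s_at and 0.875 for KRT7 on 214031_s_at. All 3 exceed Dixon's critical value for 4 samples, and chance alone passes it in about 1 in 20 groups. The 12 probe sets share the same 4 arrays. The keratin results against 0 min are given with and without this array above.

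The 24 h change of KRT15 differed between BT20 and each other line. BT20 minus MDA-MB-453 was 3.03 and BT20 minus MCF was 3.01, from changes of 2.88, -0.15 and -0.13. KRT15 did not pass the filter in MDA-MB-453, where its means lay below 4, which makes the first difference inexact.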

How the results depend on the processing

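The rise of KRT15 at 24 h in BT20 was called in all 17 settings, at 2.77 to 3.07, and so was its difference from the other lines in all 23 settings, at 2.96 to 3.22 for MDA-MB-453 and 2.43 to 3.20 for MCF. No keratin change called with all arrays changed sign under an alternative. These checks used 1 probe set per gene. Among changes not called the sign turned in 44 checks, and KRT15 in MCF went from -0.13 to 0.30 with array weights. With replicate 4 alone KRT16 at 6 h in BT20 went from -1.02 to 0.53. At 24 h KRT5 went from -0.17 to 0.21 and KRT8 from -0.02 to 0.39 with that control. The call of KRT15 at 6 h was lost in 5 of 17 settings. Counts of keratin probe sets called moved as follows. With BT20 0 min replicate 4 alone, a single control array, they moved at 30 min, 6 h and 24 h and for each difference between lines. Differences from that fit are given above. With array weights the counts were 7 at 24 h in BT20, where 16494 of 26391 probe sets were called over all. They were 3 for BT20 minus MDA-MB-453 (12972 of 29774 over all) and 4 for BT20 minus MCF (18792 of 29774). With 1 probe set per gene, where fewer probe sets are counted, they were 6 of 8 at 6 h (6485 of 11517 over all). For 24 h with 6 h they were then 7 of 8 (6595 of 11517). In 1 fit to all 25 arrays the count for 24 h with 6 h was 7 (11252 of 29774 over all). The cause of the other moves was not tested. Leaving out single arrays gave 0 to 0 at 30 min, 9 to 12 at 6 h, 3 to 6 at 24 h, 9 to 10 for 24 h with 6 h, 0 to 0 in MDA-MB-453 and in MCF, 10 to 12 for BT20 with MDA-MB-453 at 0 min, 1 to 1 for BT20 minus MDA-MB-453 and 1 to 2 for BT20 minus MCF. The highest counts at 6 h and 24 h and for BT20 minus MCF came without BT20 0 min replicate 4. Over all probe sets, leaving out single arrays gave 9311 to 17861 calls at 6 h and 8224 to 14278 at 24 h. It gave 10879 to 11629 for 24 h with 6 h and 19378 to 21906 for BT20 with MDA-MB-453 at 0 min. For BT20 minus MDA-MB-453 it gave 2701 to 4972, and for BT20 minus MCF 2901 to 5824.

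With the replicate number as a block the counts were 6 at 24 h in BT20 (13757 of 26391 over all) and 2 for BT20 minus MCF (5909 of 29774). The labels do not say whether same-numbered arrays belong together. Such arrays deviated together (r above 0.1) in 6 of 24 pairs, with r from -0.73 to 0.82. These values cannot decide it, because deviations from the mean of such small groups are tied to each other. Over all probe sets the calls in MCF went from 0 to 694 in 1 fit to all 25 arrays and to 5355 with array weights, and those at 6 h in BT20 from 13438 to 1435 with replicate 4 alone.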
